A study of Mus musculus with 8 samples.

Results

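The TNF superfamily ligands and receptors were examined in C3H10T1/2 cells, a multipotent mesenchymal line of mouse embryo origin, after treatment with sphingosine 1-phosphate (S1P), a signalling lipid. Members were all genes of the deposited count table whose symbol starts with Tnfsf or Tnfrsf, together with Tnf, Lta and Ltbr. This gave 31 of 18306 genes, of which 12 were ligands and 19 were receptors. Per the labels, plated cells were kept in medium without serum for 24 h and then received 5 µM S1P or vehicle (fatty acid-free bovine serum albumin) for a further 24 h, so all groups share the serum withdrawal. The data are 4 vehicle libraries, replicates 1 to 4, and 4 S1P libraries, replicates 5 to 8, all from a single cell line. The labels do not state that the 4 libraries of a treatment were grown as separate cultures. The p-values therefore describe only the spread between these samples, which may be technical.

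TNF superfamily ligands are mostly membrane-anchored trimers that can be shed, and their receptors carry cysteine-rich domains outside the cell. Receptors with a death domain can start caspase-dependent death, the others bind TRAF adaptors and feed NF-kB and MAP kinase signalling, and a few are decoys that bind a ligand without signalling. In bone, stromal and osteoblast-lineage cells make the ligand RANKL (Tnfsf11), which drives osteoclast formation through its receptor RANK (Tnfrsf11a), and the secreted decoy osteoprotegerin (Tnfrsf11b), which blocks RANKL.

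Each library held 13750303 to 13761544 counts, and 11844 genes had enough counts to be tested. Levels are CPM (counts scaled to library size) with composition factors, and means are given ± SD over the 4 libraries of a group (n = 4 throughout). Differences are log2 fold changes of S1P over vehicle from the edgeR quasi-likelihood test, and p-values were adjusted over all tested genes by the Benjamini-Hochberg (BH) method with a threshold of 0.05. The mesenchymal markers were all present (10 of 10, summed level 27690 to 34160 CPM in vehicle and 24790 to 31720 CPM after S1P). Leukocyte markers, relevant because many of these ligands are immune cell genes, were found for 11 of 18 symbols. Each of the 11 had a count somewhere, and their sum was 14.98 to 25.8 CPM in vehicle and 9.95 to 15.4 CPM after S1P. Cd14 held most of it (15.5 CPM in vehicle), whereas Ptprc, the pan-leukocyte gene, had no count in any vehicle library, which allows up to 0.213 to 0.222 CPM, and at most 2 counts in an S1P library.

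Of the 31 members, 12 passed the filter on low counts, 10 receptors and 2 ligands. Every one of the 12 reached 10 counts in all 8 libraries, so none passed through a single group. After S1P, the receptor gene Tnfrsf12a rose, Tnfrsf21 fell and the other 10 did not pass the test. At an unadjusted p under 0.05 there were 4 of the 12 (Tnfrsf12a, Tnfrsf11b, Tnfrsf21 and Tnfrsf1a), against 24.9% of all tested genes. Across all tested genes 5.6% were called higher and 2.9% lower, so 1 member in each direction is near the background share. The groups did not overlap for 2 members with S1P higher, Tnfrsf12a and Tnfrsf11b, against 12% of all tested genes, and for 1 with S1P lower, Tnfrsf21, against 7.21%. The median log2 fold change of the 12 was -0.18, beside -0.04 over all tested genes, and 6 of the 12 were negative, beside 53.9% of all tested genes. In bulk samples such as these, fewer cells that express a gene and less RNA per cell cannot be told apart.

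**Figure D1:**
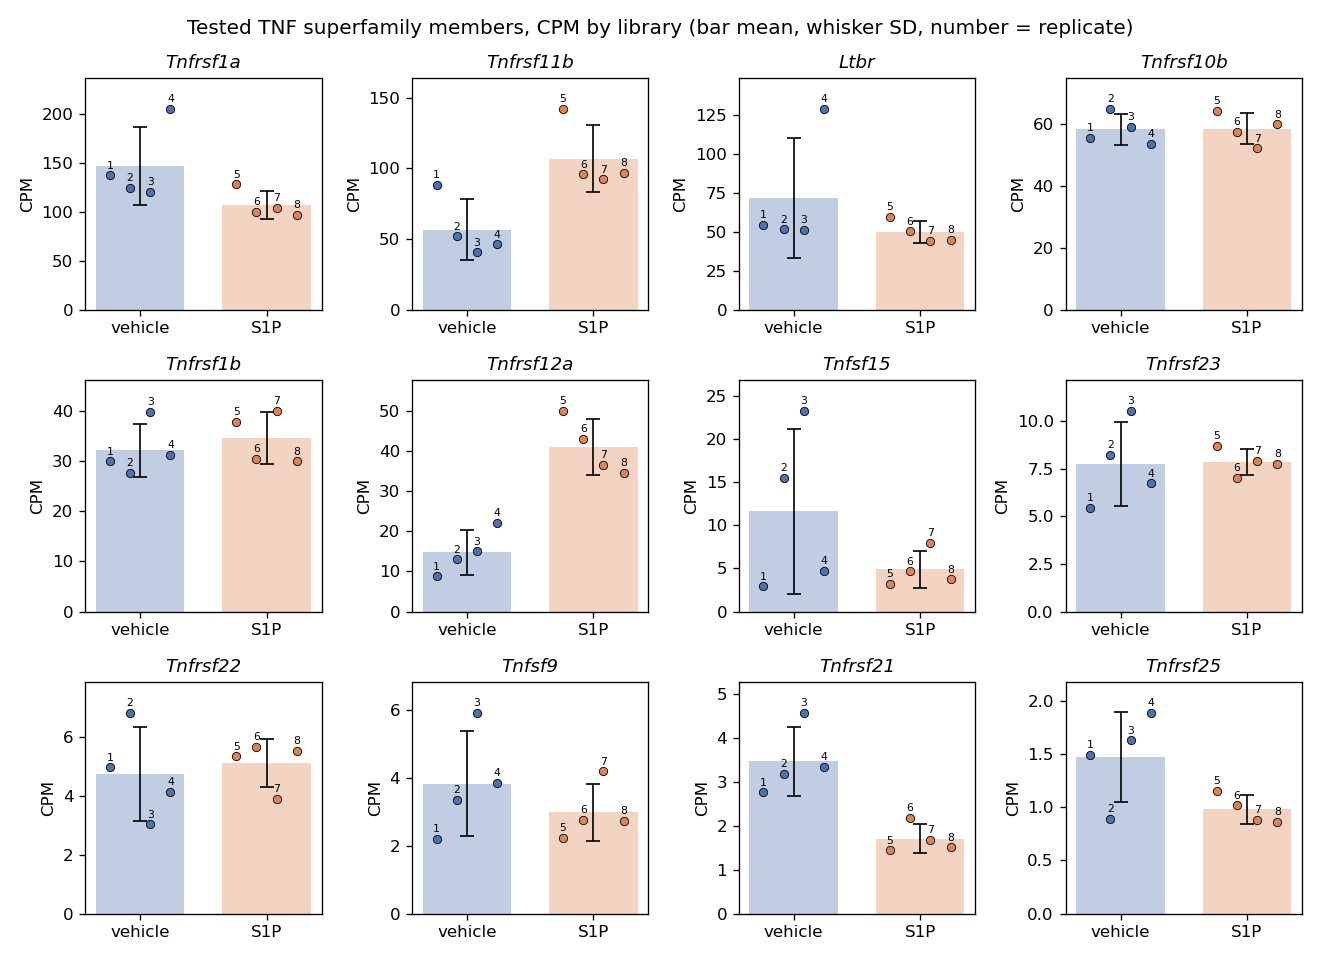
Level in CPM of the 12 tested TNF superfamily members, 1 panel per gene, in vehicle (blue) and S1P (orange) libraries; points are libraries labelled by replicate, bars are means and whiskers the SD of 4. The groups are separate for Tnfrsf12a, Tnfrsf11b and Tnfrsf21, and vehicle replicate 4 stands high for Ltbr at 129 CPM.

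Tnfrsf12a encodes Fn14, a small receptor for the ligand TWEAK that binds TRAF adaptors and is known as a growth factor-inducible gene in fibroblasts. No gene of the deposited table carries the symbol Tnfsf12, that of TWEAK, so the ligand of Fn14 is not among the members. Tnfrsf12a lies on chromosome 17 from 23812214 to 23814616 in the mm9 build used by the deposited table. Its level was 8.80, 13.05, 15.01 and 22.1 CPM in vehicle replicates 1 to 4 and 50.1, 43.0, 36.6 and 34.6 CPM in S1P replicates 5 to 8. The lowest S1P library was above the highest vehicle library, which was replicate 4. The mean went from 14.75 ± 5.57 to 41.1 ± 7.01 CPM, a 2.79-fold rise (log2 fold change 1.48 with an SE of 0.26, edgeR BH-adjusted p = 0.00922). Leaving out any library kept the call, with log2 fold changes of 1.27 to 1.74 and an adjusted p of up to 0.0363.

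The span of Tnfrsf12a shares 478 of its 2403 bases with the neighbouring gene Hcfc1r1, and how reads in the shared stretch were assigned is not given in the sources used here. Hcfc1r1 moved the other way, from 45.4 ± 25.6 to 17.85 ± 4.64 CPM (log2 fold change -1.35 with an SE of 0.35, edgeR BH-adjusted p = 0.0473). The value of Tnfrsf12a is uncertain to the extent of that stretch.

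Tnfrsf21 encodes DR6, a death-domain receptor (chromosome 17, 43153304 to 43226337 in mm9). Its level was 2.77, 3.19, 4.58 and 3.34 CPM in vehicle replicates 1 to 4 and 1.44, 2.18, 1.69 and 1.51 CPM in S1P replicates 5 to 8. All S1P libraries lay below all vehicle libraries, and the counts behind them ran from 20 to 62. Mean levels were 3.47 ± 0.78 CPM in vehicle and 1.70 ± 0.33 CPM with S1P, a 2.03-fold decrease (log2 fold change -1.02 with an SE of 0.26, edgeR BH-adjusted p = 0.0414). The call did not survive leaving out vehicle replicate 2, vehicle replicate 3 or any single S1P library (adjusted p of up to 0.129 in edgeR), although the log2 fold change stayed between -1.16 and -0.86, and it was also lost with no filter on low counts (adjusted p = 0.0691).

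The sequences before the transcription starts of these receptor genes, the only members called, are given here as the upstream regions nearest to the changes. Both are the 250 bases before the RefSeq start, read 5′ to 3′ on the gene's strand in GRCm38.p6, at chr17:23677450-23677699 on the minus strand for Tnfrsf12a and chr17:43016305-43016554 on the plus strand for Tnfrsf21. Capitals mark matches to GGGCGG, a GC box that SP1-type factors can bind, on either strand.
Tnfrsf12a: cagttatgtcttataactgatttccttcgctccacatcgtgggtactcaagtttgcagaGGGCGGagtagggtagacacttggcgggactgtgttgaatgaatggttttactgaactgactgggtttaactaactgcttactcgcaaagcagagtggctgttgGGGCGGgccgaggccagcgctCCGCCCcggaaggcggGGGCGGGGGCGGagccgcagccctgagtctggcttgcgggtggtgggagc
Tnfrsf21: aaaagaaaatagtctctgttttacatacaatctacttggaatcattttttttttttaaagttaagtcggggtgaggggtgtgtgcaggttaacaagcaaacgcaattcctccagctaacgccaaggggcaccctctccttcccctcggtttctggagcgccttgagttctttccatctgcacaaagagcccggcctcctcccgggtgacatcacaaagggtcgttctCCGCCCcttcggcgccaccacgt

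The Tnfrsf12a window held 5 such matches, none overlapping another, and the Tnfrsf21 window held 1. Among 32841 RefSeq promoter windows of the same length, 32.7% held at least 1 match and 1.93% held 5 or more. Neither window held a match to TGANTCA (AP-1), found in 6.75% of all windows, GGAATG (TEAD), in 12.6%, the NF-kB consensus, in 7.25%, or the CArG box, in 1.47%, each searched on both strands. A match in such a window is a description of its letters only.

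Tnfrsf11b, the gene of osteoprotegerin (chromosome 15, 54081974 to 54110239 in mm9), was higher in every S1P library but did not pass the test. Its level was 88.1, 51.75, 40.5 and 46.2 CPM in vehicle replicates 1 to 4 and 142, 95.7, 92.1 and 96.85 CPM in S1P replicates 5 to 8. Vehicle replicate 1 was close to the lowest S1P library, and S1P replicate 5 stood well above the other S1P libraries. The means were 56.6 ± 21.5 and 106.7 ± 23.8 CPM, with a log2 fold change of 0.91 (with an SE of 0.25, edgeR BH-adjusted p = 0.0557). The gene was called by DESeq2 (adjusted p = 0.00872), which called 15% of all genes it tested, by limma-voom (adjusted p = 0.0384) and by edgeR without vehicle replicate 1 (log2 fold change 1.19, adjusted p = 0.0083). In the other edgeR fits that left out a single library the adjusted p was 0.0867 to 0.122.

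The partners of osteoprotegerin were close to the limit of detection. Tnfsf11, the RANKL gene (chromosome 14, 78677052 to 78708050 in mm9), had 0, 5, 33 and 6 counts in vehicle replicates 1 to 4 and 3, 10, 27 and 7 counts in S1P replicates 5 to 8. It was thus highest in a single library of each group, vehicle replicate 3 and S1P replicate 7, with 44 counts in all in vehicle and 47 after S1P. Tnfrsf11a, the RANK gene, had 0 to 10 counts per vehicle library and 0 to 3 per S1P library. Per kilobase of exon, Tnfrsf11b averaged 29.0 CPM over the 8 libraries, against 0.373 CPM per kb for Tnfsf11.

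**Figure D2:**
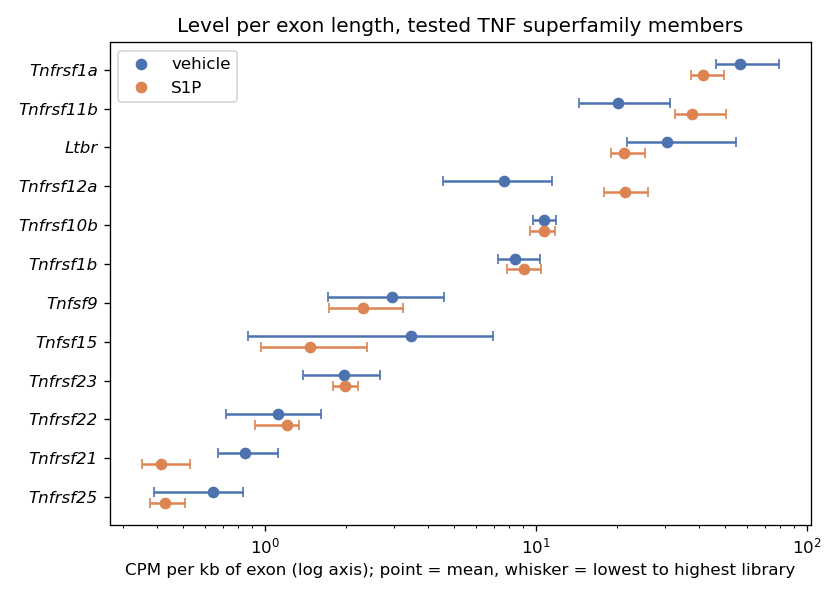
Level of the 12 tested members in CPM per kilobase of exon, on a log axis, in vehicle (blue) and S1P (orange); points are means of 4 libraries and whiskers run from the lowest to the highest library. Genes are ordered by the mean over all 8 libraries; Tnfrsf12a is at 7.63 CPM per kb in vehicle and, after S1P, at 21.3 beside Ltbr at 21.2.

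Levels between genes are compared per kilobase of exon (exon lengths from GENCODE M21). In vehicle, Tnfrsf1a, the death-domain TNF receptor TNFR1, was highest at 56.7 ± 15.4 CPM per kb. Ltbr, the receptor of membrane lymphotoxin, followed at 30.5 ± 16.3 and Tnfrsf11b at 20.1 ± 7.62, and the ranges of these neighbours overlapped. For Tnfrsf1a and Ltbr the overlap came from vehicle replicate 4 alone, where they were at 79.3 and 54.9 CPM per kb. Within each vehicle library Tnfrsf1a was above Ltbr. Tnfrsf10b, the mouse death receptor of TRAIL, had 10.7 ± 0.924, Tnfrsf1b, the TNF receptor TNFR2, had 8.42 ± 1.40, and Tnfrsf12a had 7.63 ± 2.88 CPM per kb, again with overlapping ranges. Even so, Tnfrsf10b was above Tnfrsf1b within each vehicle library. After S1P, Tnfrsf11b (37.9 ± 8.45 CPM per kb) overlapped in range with Tnfrsf1a (41.3 ± 5.49), and Tnfrsf12a (21.3 ± 3.63) overlapped with Ltbr (21.2 ± 3.02) and lay above Tnfrsf10b (10.7 ± 0.925) in every library. The ligands Tnfsf9 and Tnfsf15, at means of 2.64 and 2.47 CPM per kb over the 8 libraries, were the highest of the 12 ligands. The span of Tnfsf9 shares 958 of its 2773 bases with Gm11110, a gene at a mean of 0.947 CPM. The value of Tnfsf9 is uncertain to that extent. The remaining ligands were at 0.0145 to 0.386 CPM per kb.

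The TNF receptors themselves did not pass the test. Tnfrsf1a (chromosome 6, 125299180 to 125312702 in mm9) was at 137, 124, 120 and 205.5 CPM in the vehicle libraries and 128, 99.7, 104 and 96.9 CPM in the S1P libraries, in replicate order. Vehicle replicate 4 was far above the rest, and the groups overlapped through S1P replicate 5 (log2 fold change -0.46 with an SE of 0.18, edgeR BH-adjusted p = 0.165). Without vehicle replicate 4 the log2 fold change was -0.25, and with S1P replicate 5 left out as well it was -0.35 and passed (edgeR adjusted p = 0.0275). Tnfrsf1b was at 29.9, 27.65, 39.8 and 31.2 CPM in vehicle and 37.9, 30.4, 40.1 and 29.9 CPM after S1P, so the groups covered the same range (log2 fold change 0.10 with an SE of 0.16, edgeR BH-adjusted p = 0.70).

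Ltbr lies 35.1 kb from Tnfrsf1a on chromosome 6 (125256389 to 125264103 in mm9). It was at 54.6, 51.6, 51.3 and 129 CPM in vehicle replicates 1 to 4 and 59.7, 50.4, 44.4 and 44.9 CPM in S1P replicates 5 to 8. Again vehicle replicate 4 alone was high, and the other vehicle libraries lay within the S1P range. The log2 fold change was -0.52 (with an SE of 0.30, edgeR BH-adjusted p = 0.311) and -0.07 without vehicle replicate 4 (adjusted p = 0.706). Tnf and Lta, ligand genes of the TNF receptors and neighbours 757 bases apart on chromosome 17, were too low to test. Tnf had 1, 8, 23 and 2 counts in vehicle replicates 1 to 4 and 3, 1, 9 and 2 in S1P replicates 5 to 8, and Lta, the lymphotoxin alpha gene, had 2 to 5 counts per vehicle library and 0 to 3 per S1P library.

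The excess in vehicle replicate 4 moved with base composition. Relative to the mean of vehicle replicates 1 to 3, this library was at 2.46 for Ltbr, 1.80 for Tnfrsf12a, 1.61 for Tnfrsf1a and 1.41 for Tnfrsf25, the 4 tested members with the highest GC content (55.9% to 60.4% of the longest transcript, against a median of 49.3% over tested genes). The lowest ratio was 0.339 for Tnfsf15, with a GC content of 43.4%. Over the 12 tested members GC content and the log2 of this ratio correlated at r = 0.89 (Spearman's rho 0.97), a description of points that share the same libraries. The part of GC content in the comparison of S1P with vehicle was not tested. Without vehicle replicate 4 the log2 fold change of Tnfrsf12a was 1.74, against 1.48 with all libraries, a refit that does not measure GC content.

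**Figure D3:**
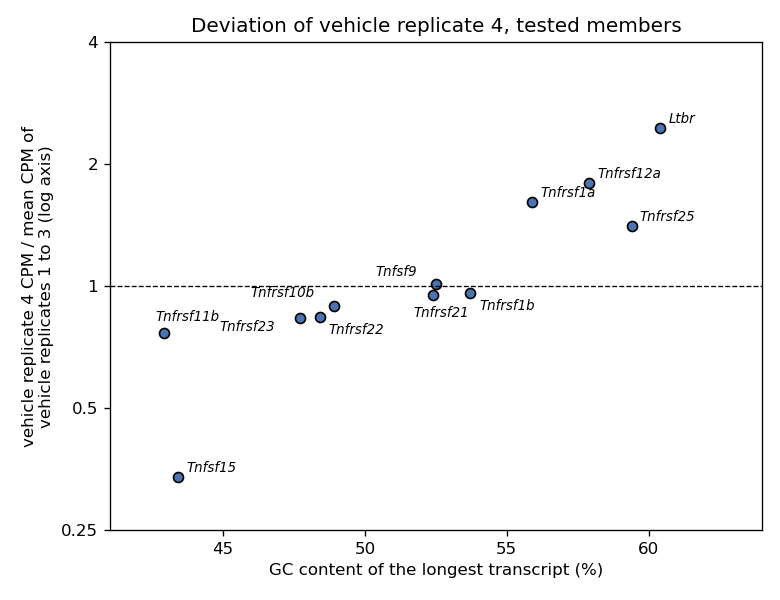
Ratio of the CPM in vehicle replicate 4 to the mean CPM of vehicle replicates 1 to 3 (log axis) against the GC content of the longest transcript in percent, 1 point per tested member; the dashed line marks equality. The ratio runs from 0.339 for Tnfsf15 to 2.46 for Ltbr.

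**Figure D4:**
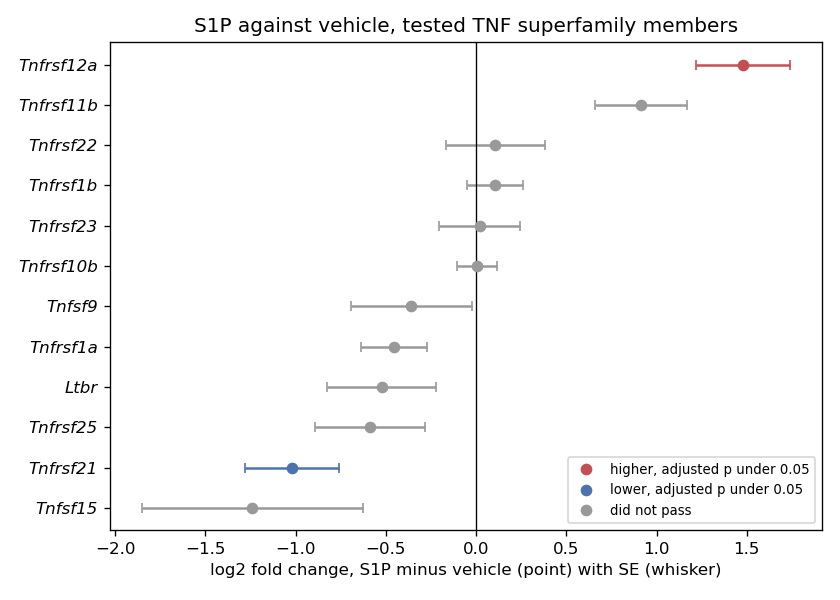
Log2 fold change of S1P over vehicle with its SE for the 12 tested members, sorted by size; red and blue mark members called higher and lower by edgeR, grey those that did not pass. Tnfrsf12a is at 1.48, Tnfrsf21 at -1.02 and Tnfrsf11b, not called, at 0.91.

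Receptors of the death ligand TRAIL (Tnfsf10) showed no detectable change at this depth. Tnfrsf10b (chromosome 14, 70167079 to 70184410 in mm9) was the steadiest member, at 55.4, 64.95, 59.0 and 53.5 CPM in vehicle and 64.2, 57.45, 52.1 and 59.8 CPM after S1P. Its groups covered the same range, and the log2 fold change was 0.004 (with an SE of 0.11, edgeR BH-adjusted p = 0.985). The decoy receptors Tnfrsf22 and Tnfrsf23, 15.7 kb apart on chromosome 7, averaged 4.74 ± 1.60 and 7.75 ± 2.19 CPM in vehicle and 5.11 ± 0.82 and 7.86 ± 0.69 CPM after S1P. Their log2 fold changes were 0.11 and 0.02 (edgeR BH-adjusted p = 0.83 and 0.962). Their longest transcripts are 91.2% identical over 2172 bases, so reads could be shared between them and both values are uncertain. Shorter stretches of Tnfrsf10b (up to 97.5% identical over 405 bases) and of Tnfrsf22 (up to 97.9% over 766 bases) also match transcripts of other genes. Tnfsf10 itself had 10, 11, 29 and 9 counts in vehicle replicates 1 to 4 and 6, 0, 8 and 0 in S1P replicates 5 to 8. Each S1P library was below each vehicle library, but the gene did not reach the count filter. With no filter its log2 fold change was -2.04 and did not pass (edgeR BH-adjusted p = 0.228).

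Tnfsf15, the ligand TL1A, had the largest negative log2 fold change among tested members and also the widest spread. It was at 2.91, 15.5, 23.3 and 4.72 CPM in vehicle replicates 1 to 4 and 3.25, 4.65, 8.00 and 3.73 CPM in S1P replicates 5 to 8. The S1P libraries lay inside the vehicle range, and the vehicle mean rested on replicates 2 and 3 (log2 fold change -1.24 with an SE of 0.61, edgeR BH-adjusted p = 0.244). Without vehicle replicate 3 the log2 fold change was -0.65. Its receptor gene Tnfrsf25, encoding the death-domain receptor DR3, had means of 1.47 ± 0.42 and 0.978 ± 0.136 CPM (log2 fold change -0.59 with an SE of 0.30, edgeR BH-adjusted p = 0.264). Tnfsf9, the ligand of the costimulatory receptor Tnfrsf9, had means of 3.82 ± 1.55 and 2.98 ± 0.84 CPM (log2 fold change -0.36 with an SE of 0.34, edgeR BH-adjusted p = 0.528), while Tnfrsf9 itself had at most 1 count in any library.

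The remaining 19 members had too few reads to test, and 7 of them had fewer than 10 counts over all 8 libraries together. Of the 12 with at least 10 counts in all, 3 had S1P libraries that all lay below the vehicle libraries, against 7.12% of 2400 untested genes with as many counts. These were Tnfsf10, the ligand gene Tnfsf14, which encodes LIGHT, and the receptor gene Tnfrsf14, which encodes HVEM. The cut on total counts can be met through a single group, as by Tnfsf14, so these shares are a description only. Tnfrsf14 had 7, 10, 17 and 13 counts in vehicle replicates 1 to 4 and 3, 2, 6 and 1 in S1P replicates 5 to 8. With no filter its log2 fold change was -1.92 (edgeR BH-adjusted p = 0.0721). Tnfsf14 had 3, 1, 7 and 3 counts in vehicle and none in any S1P library. Set against a floor of 3 counts over the S1P group, the vehicle level was 4.69-fold higher. Without vehicle replicate 3, an alternative chosen after seeing the data, it was 3.11-fold higher. These ratios take the vehicle counts as exact and are not lower limits. With no filter the gene did not pass (edgeR adjusted p = 0.0599).

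With no filter, none of the 19 untested members was called by edgeR with Benjamini-Hochberg adjustment. Of the 12 with at least 10 counts in all, 4 had an unadjusted edgeR p under 0.05 (Tnfsf8, Tnfsf10, Tnfsf14 and Tnfrsf14). The share was 14% among the 2400 untested genes with as many counts. Here too the cut on total counts can be met through a single group, so the shares are a description only. Tnfsf18, the ligand of Tnfrsf18, a superfamily receptor found on T cells, had more counts after S1P, as few others did. It was at 28 counts against 13 in vehicle, with overlapping libraries. Tnfsf8, the CD30 ligand, had 20 counts in vehicle and 6 after S1P. The ligand gene Tnfsf13, also known as APRIL, had 35 in each group, but its whole span lies within another gene of the table, BC096441, with which its transcript shares 668 identical bases, so its counts are uncertain. Tnfrsf4, the OX40 receptor, had 18 counts in each group and overlaps Sdf4, a gene at a mean of 179 CPM, by 168 bases. The other 9 (Lta, Tnfsf13b, Tnfsf4, Tnfrsf19, Tnfrsf8, Tnfrsf13c, Tnfrsf9, Tnfrsf18 and Tnfrsf17), mostly genes of lymphocytes and their partners, had 0 to 5 counts per library.

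**Figure D5:**
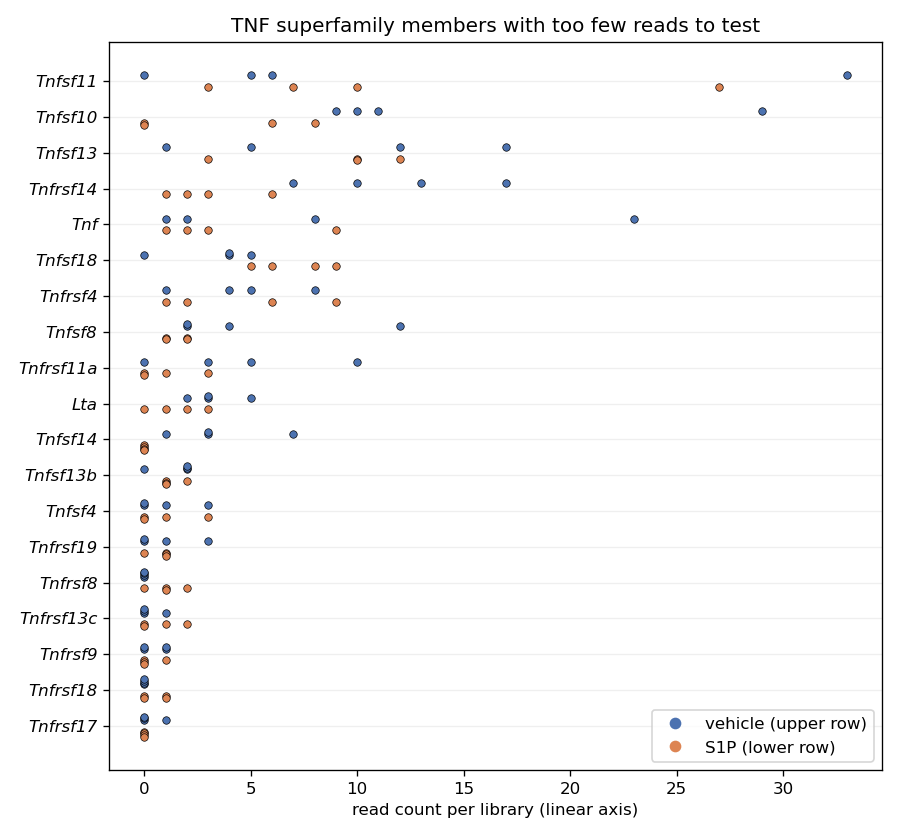
Read counts per library for the 19 members with too few reads to test, vehicle in blue above S1P in orange for each gene, on a linear axis. For Tnfsf10, Tnfrsf14 and Tnfsf14 all S1P points lie below the vehicle points, and Tnfsf11 reaches 33 counts in vehicle replicate 3 and 27 in S1P replicate 7.

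Ligand counts varied together between libraries of the same group. Vehicle replicate 3 was the highest vehicle library for 9 of 12 ligands (Tnf, Tnfsf4, Tnfsf8, Tnfsf9, Tnfsf10, Tnfsf11, Tnfsf14, Tnfsf15 and Tnfsf18), but for 4 of 19 receptors. Over all 18306 genes the same library was highest for 19.4%, and over the 6462 untested genes for 16.6%, with ties counted for no library. In the S1P group replicate 7 was highest for 6 of 12 ligands and 4 of 19 receptors, against 17.9% of all genes and 14.7% of untested genes. Some leads rested on few reads, as in vehicle replicate 3 with 5 counts against at most 4 for Tnfsf18 and 3 against at most 1 for Tnfsf4. The summed level of the 12 ligands was 38.2 CPM in vehicle replicate 3 and 7.38 to 21.65 CPM in the other vehicle libraries. It was 16.3 CPM in S1P replicate 7 against 8.22 to 9.73 CPM in the other S1P libraries. Tnfsf15 alone held 23.3 CPM of the sum in vehicle replicate 3 and 8.00 CPM of that in S1P replicate 7. The leukocyte marker sum was also highest in vehicle replicate 3 (25.8 CPM) but close to that of vehicle replicate 4 (24.5 CPM), and in S1P replicate 7 (13.9 CPM) it lay within the range of its group. The part of these markers in the ligand levels was not tested.

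Superfamily members that carry other symbols gave no call. Of 12 such genes 10 were found and 5 were tested, and none passed (edgeR with Benjamini-Hochberg adjustment; also none at an unadjusted p under 0.05, by DESeq2 or by limma-voom). The most abundant were the death receptor Fas, at 302.5 ± 113.4 CPM without and 254 ± 64.5 CPM with S1P, and the ectodysplasin receptor Eda2r, at 41.7 ± 20.01 and 58.4 ± 19.7 CPM. Ngfr, a neurotrophin receptor of the same family and singled out after its values were seen, had 0, 9, 21 and 35 counts in vehicle replicates 1 to 4 and 0, 0, 2 and 0 in S1P replicates 5 to 8. It did not reach the count filter.

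Genes of adaptors and death signalling downstream of the receptors mostly did not pass. Of 37 tested, 2 rose, 1 fell and 34 did not pass, beside 8.5% of all tested genes called in either direction, and the median log2 fold change was -0.04. Traip, first described as a TRAF-interacting protein and known as a ubiquitin ligase of DNA replication, rose 2.49-fold (5.99 ± 1.36 CPM in vehicle, 14.9 ± 2.13 CPM with S1P, edgeR BH-adjusted p = 0.00625). Traf5, an adaptor of several members, fell 1.68-fold (8.00 ± 0.278 CPM in vehicle, 4.76 ± 0.887 CPM with S1P, edgeR adjusted p = 0.0405). For Traf5 the call ended when any 1 of vehicle replicates 1 to 3 or of S1P replicates 6 to 8 was left out (edgeR adjusted p of up to 0.144), and with no filter.

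Among 34 tested genes that TNF can induce or that feed back on NF-kB, 5 fell and 29 did not pass, where 2.9% of all tested genes were called lower. The median log2 fold change was -0.42 and 28 of 34 were negative, beside 53.9% of all tested genes. This list was chosen with earlier results of these data known, so these shares are a description only. The fallers were Icam1, an adhesion molecule (2.72-fold), Ccl5, a chemokine (2.62-fold), Tnip1, an inhibitor that binds A20 (2.15-fold), Sod2, the mitochondrial superoxide dismutase (1.90-fold), and Tnfaip2 (1.79-fold), with edgeR BH-adjusted p of 0.0362 to 0.0462. Tnip1 went from 220 ± 98.4 to 102 ± 13.76 CPM and Sod2 from 420 ± 119 to 221 ± 55.9 CPM. All 5 lost the call when any 1 of vehicle replicates 2 and 3 or of S1P replicates 6 to 8 was left out (up to 0.147 after BH adjustment in edgeR). Icam1 and Ccl5 also lost it with limma-voom, and Icam1 with no filter. Vehicle replicate 3, highest for most of the ligands, was the highest vehicle library for 16 of these 34 genes and vehicle replicate 4 for 13. Over all 18306 genes these libraries were highest for 19.4% and 31.3%. In the S1P group replicate 5 was highest for 24 of the 34, and replicate 7, highest for 6 of the ligands, for 4. The shares over all genes were 28.3% and 17.9%.

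Genes of ligand shedding and osteoclast coupling gave no call among 6 tested (edgeR with Benjamini-Hochberg adjustment), with 1, Adam17, at an unadjusted p under 0.05 and called by DESeq2 but not by limma-voom. In edgeR it was also called with relative log expression factors, without vehicle replicate 4, and without that library and S1P replicate 5. Adam17, the protease that sheds TNF and its receptors and which was chosen after its value was seen, went from 217 ± 48.25 to 138 ± 19.8 CPM (log2 fold change -0.66 with an SE of 0.18, edgeR BH-adjusted p = 0.0516). The most abundant members of this list were Csf1, the macrophage growth factor that acts beside RANKL on osteoclast precursors and is also in the TNF-inducible list, at 742 ± 77.7 and 739 ± 191 CPM, and Timp3, an inhibitor of Adam17, at 644 ± 379 and 485 ± 31.7 CPM. The log2 fold changes of these were -0.007 and -0.41 (edgeR adjusted p = 0.985 and 0.461).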

How the data were processed

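The authors deposited whole-number read counts per Ensembl gene with gene symbols and mm9 coordinates. The submitters' processing notes name STAR 2.5.3a and mm9. No counting tool or annotation is named in the sources used here. The nearly equal totals mean that depth before deposit is unknown, and intervals and floors (3 counts) cover counting error only.

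Columns were matched to samples by title. Genes were filtered with filterByExpr (minimum count 10), scaled with TMM and fitted over all 8 libraries with the robust quasi-likelihood test of edgeR 4.0.16 (R 4.3.3), treatment being the only term. The SE was taken from the F statistic. DESeq2 1.42.0 and limma-voom (limma 3.58.1) were alternatives. The fit was tested on simulated data. All members and lists were chosen with earlier results of these data known. Values per library are given for called members, those with a mean of at least 10 CPM, and Tnf, Tnfsf11 and Tnfrsf11b; other values per library, and genes so marked, were chosen after their values were seen. In other lists at most 8 called genes are named, or the 2 most abundant. The values of 1 called gene of the adaptor and death list are not reported here.

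All 31 identifiers kept their symbol in a current name table, and 26 of the 31 had a promoter sequence in RefSeq (GRCm38.p6), whose coordinates were not mixed with mm9. Similar transcripts were found with BLAST+ 2.17.0 in GENCODE M21. Of the marker lists, endothelial markers summed to 36.6 to 77.0 CPM in vehicle and 17.5 to 44.2 CPM after S1P, nearly all from Tek (54.8 ± 20.8 and 31.2 ± 12.05 CPM, SD, log2 fold change -0.81, edgeR adjusted p = 0.178), and 3 epithelial markers summed to 1.11 to 2.83 CPM in vehicle and 1.47 to 2.18 CPM after S1P. The part of these markers in the results was not tested.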

Additional observations from a re-analysis of the deposited data

Results flagged for a closer look

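Among 24 groups of 4 libraries, 1 for each tested member and treatment, 2 held a library far from the others, where chance gives about 1 in 20. Ltbr was at 129.3 CPM in vehicle replicate 4, where vehicle replicates 1 to 3 had 51.3 to 54.56 CPM. Tnfrsf11b was at 142.3 CPM in S1P replicate 5, where S1P replicates 6 to 8 had 92.1 to 96.85 CPM. Without the outlying library the log2 fold change was -0.07 for Ltbr (edgeR Benjamini-Hochberg adjusted p = 0.706) and 0.75 for Tnfrsf11b (edgeR Benjamini-Hochberg adjusted p = 0.115).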

How the results depend on the processing

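Tnfrsf12a was called higher under all 16 alternatives, with log2 fold changes of 1.27 to 1.74. Members called higher numbered 1 in the fit reported here, 2 with DESeq2 or limma-voom (Tnfrsf11b added) and 1 to 2 when a library was left out. Members called lower numbered 1, then 0 with no filter and 0 to 2 when a library was left out, the 2 being without vehicle replicate 1, where Tnfrsf14 entered the test through its vehicle counts alone. Without vehicle replicate 4 and S1P replicate 5 together the lower member was Tnfrsf1a instead of Tnfrsf21. All genes called numbered 1007, 1771 with DESeq2, 434 (without S1P replicate 6) to 1856 (without vehicle replicate 4) with a library left out, and 2112 without that pair. Superfamily genes under other symbols called went from 0 to 1 (Relt) without vehicle replicate 4 or without that pair, a range of 0 to 1. Adaptor and death genes called ranged from 1 to 6 with a library left out and were 8 without that pair, against 3. TNF-inducible genes called were 11 with DESeq2, 0 to 10 with a library left out and 14 without that pair, against 5. The causes were not tested.

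Among 24 genes followed singly, 52 of the alternative values lost a call and 4 gained one. A further 22 changed sign, all in genes not called in either fit. Tnfrsf10b was at -0.019 with relative log expression factors and with DESeq2, -0.082 without the pair and -0.043 to 0.061 with a library left out. Tnfrsf23 was at -0.004, -0.003, -0.093 and -0.139 to 0.206 in the same order. Eda2r was at -0.007 without the pair. Csf1 was at 0 with no composition factor, 0.004 with no filter and -0.186 to 0.106 with a library left out, Tnfrsf22 at -0.056 to 0.335 and Timp3 at -0.581 to 0.056. The floor of 3 counts was 0.213 to 0.222 CPM. Of the 12 ligands only 2 had enough counts to be tested, and the smallest change that this depth can show was not computed. No paired analysis was possible because the labels pair no libraries and the groups share no replicate number.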

Other observations

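In the 250 bases before the start of the 26 members with a RefSeq promoter, 13 genes held a match to GGGCGG on either strand in at least 1 of their windows, against 32.7% of all windows. AP-1 matches (TGANTCA) were in 5 (Tnfrsf8, Tnfrsf9, Tnfsf13, Tnfsf13b and Tnfsf14, all too low to test here) and TEAD matches (GGAATG) in 5 (Tnfrsf11a, Tnfrsf1b, Tnfsf13, Tnfsf15 and Tnfsf18), against 6.75% and 12.6% of all windows. The NF-kB consensus was in 3 (Tnfrsf25, Tnfrsf8 and Tnfrsf9), against 7.25%. Several genes have more than a single window, so counts of genes and shares of windows are not on the same footing.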
